A study of Mus musculus with 8 samples.

Results

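The 9 genes described here encode ligands, receptors and enzymes through which a cell can restrain or assist leukocytes, and they were followed in the endothelial cells (ECs) of 2 mouse breast tumour models after an injection of the STING agonist cGAMP. The list was Cd274, Pdcd1lg2, Cd40, Cd80, Cd86, Lgals9, Ido1, Cd47 and Icosl, chosen by name, 9 of the 20408 genes listed in any of the 8 single-cell libraries. All 9 were listed in every library. They were read in cells with at least 1 unique molecular identifier (UMI, a tag that marks 1 captured RNA molecule) of Pecam1, which encodes CD31, and with no UMI of Ptprc, which encodes the pan-leukocyte antigen CD45. This rule kept 6994 of 8204 deposited cells, called gated ECs below.

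Spontaneous tumours arose in female MMTV-PyMT mice, which carry the polyoma middle T antigen under the mouse mammary tumour virus promoter and were 9 weeks old when treatment began. Implanted tumours were grown in the mammary fat pads of 8 to 9 week old female hosts from tumour cells taken from MMTV-PyMT tumours, so the endothelium of the implanted tumours came from hosts without the transgene. Tumours received PBS or cGAMP, the cyclic dinucleotide that binds STING, and live CD31+ ECs were collected from 2 mice for each group 3 h later, which gave 2 libraries for each of the 4 groups of model and treatment. Every library is labelled as from adult C57BL/6 mice, but FVB is the strain in the study's methods, and no tumour-free tissue was analysed here. The labels do not tie a library to a mouse, and if the 2 libraries of a group shared animals the p-values below would measure only the spread between libraries.

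The gated ECs numbered 570 to 1443 for each library and held 92344988 UMIs. The summed level of 10 endothelial markers, among them Cdh5, Kdr and Tie1, lay between 7172 and 8378 CPM (UMIs for each 1000000 UMIs of a cell) in all 8 libraries. The sum includes Pecam1 (1021 to 1267 CPM), whose presence was fixed by the gate. Cdh5, which the gate did not use, stood at 1043 to 1248 CPM, so the cells carried other markers of their label too. Implanted cGAMP replicate 1 stood apart, with a median of 3038 UMIs for each gated EC against 9475 to 14454 in the others. It also held the highest summed level of 21 leukocyte markers, 338 CPM, against 91.5 CPM in the other implanted cGAMP library, 48.3 to 50.5 CPM in spontaneous cGAMP and 18.9 to 36.5 CPM in the 4 PBS libraries. One of these markers, the B-cell gene Ms4a1, had no UMI. The libraries shared 7 cell barcodes out of 8197 distinct barcodes.

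Cd274 encodes PD-L1, the ligand that restrains T cells through PD-1, and Pdcd1lg2 encodes PD-L2, the second ligand of that receptor. Cd80 and Cd86 encode the B7 ligands that give the T-cell receptor CD28 its costimulatory signal and also bind the inhibitory receptor CTLA-4, and Icosl encodes the ligand of the costimulatory receptor ICOS. CD40 is a receptor of the TNF receptor family that responds to CD40 ligand on activated T cells, in ECs as well as in antigen-presenting cells. Galectin-9, from Lgals9, is a glycan-binding protein known as a ligand of TIM-3. IDO1 breaks down tryptophan to kynurenine, and CD47 gives phagocytes the signal to spare a cell through SIRPA. Interferons act through JAK kinases and STAT and IRF transcription factors, and Cd274 and Ido1 are among their well-known targets.

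In the GRCm38 assembly (mm10, GENCODE vM21), Cd274 lies at chr19:29367455-29388095 on the plus strand and Pdcd1lg2 follows on the same strand at chr19:29410919-29471161, with 22823 bases between them. An annotated antisense gene overlaps an exon of each of them. The sources used here do not state whether reads were counted by strand, and the part of antisense reads was not tested. Lgals9 lies at chr11:78962974-78984946 on the minus strand and Cd47 at chr16:49800533-49915010 on the plus strand, and neither overlaps another annotated gene. Windows running from 250 bases before to 30 bases after the annotated RefSeq transcript start (GRCm38.p6) were held for 6 members: Cd274, Pdcd1lg2, Cd80, Lgals9, Cd47 and Icosl. The 3 genes called in both cGAMP responses below, Cd274 (chr19:29367188-29367467, plus strand), Lgals9 (chr11:78984895-78985174, minus strand) and Cd47 (chr16:49855404-49855683, plus strand), are shown 5′ to 3′ with matches of the interferon-stimulated response element core in capitals.
Cd274: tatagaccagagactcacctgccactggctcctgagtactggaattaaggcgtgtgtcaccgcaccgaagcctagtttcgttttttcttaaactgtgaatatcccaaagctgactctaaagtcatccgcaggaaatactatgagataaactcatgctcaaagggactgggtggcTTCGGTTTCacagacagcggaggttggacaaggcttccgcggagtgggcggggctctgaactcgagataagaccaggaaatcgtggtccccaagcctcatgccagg
Lgals9: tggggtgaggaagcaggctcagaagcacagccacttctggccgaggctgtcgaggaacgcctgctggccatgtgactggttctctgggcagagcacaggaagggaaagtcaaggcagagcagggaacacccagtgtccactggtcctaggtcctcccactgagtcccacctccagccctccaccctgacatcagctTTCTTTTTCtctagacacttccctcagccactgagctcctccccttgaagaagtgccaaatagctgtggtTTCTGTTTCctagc
Cd47: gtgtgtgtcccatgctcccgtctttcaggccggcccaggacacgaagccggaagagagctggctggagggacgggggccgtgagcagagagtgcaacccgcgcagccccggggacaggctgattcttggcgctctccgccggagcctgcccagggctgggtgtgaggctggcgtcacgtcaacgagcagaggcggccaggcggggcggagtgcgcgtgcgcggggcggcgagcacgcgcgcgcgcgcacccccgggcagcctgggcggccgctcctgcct
The core was searched on both strands as GAAANNGAA, and it was held by 8.06% of all 32851 promoter windows of this length. The Cd274 window had 1 match, from 76 to 68 bases before the start, and the Lgals9 window had 2, from 54 to 46 bases before and from 17 to 25 bases after the start. All 3 matches lay on the strand opposite to the gene, so the printed letters are the reverse complement of the core. Neither Cd47 window matched, and nor did those of Pdcd1lg2, Cd80 and Icosl. The interferon gamma-activated site, TTCNNNGAA, was in none of the members' windows and in 7.83% of all windows. The NF-kB motif, in 7.94% of all windows, matched once in Pdcd1lg2 and once in Icosl. No motif overlapped another, and a match of letters does not show that a factor binds.

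Cd274, Cd40, Lgals9, Ido1 and Cd47, 5 of the 9 genes, reached 5 CPM in at least 2 libraries and were tested among 10425 genes. CPM here is the mean over gated ECs of each cell's UMIs as CPM of that cell, a measure of 3′ tags that is not divided by gene length. Cd47 was detected in 6111 of the 6994 gated ECs and Lgals9 in 5168, Cd274 in 1783 and Cd40 in 1167, whereas Icosl was detected in 192 and Ido1 in 185. Cd86 gave 15 UMIs in all, Cd80 gave 5 and Pdcd1lg2 gave 1. A lower level in a group can be fewer cells with the transcript or less of it for each cell, which these sums do not tell apart.

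**Figure D1:**
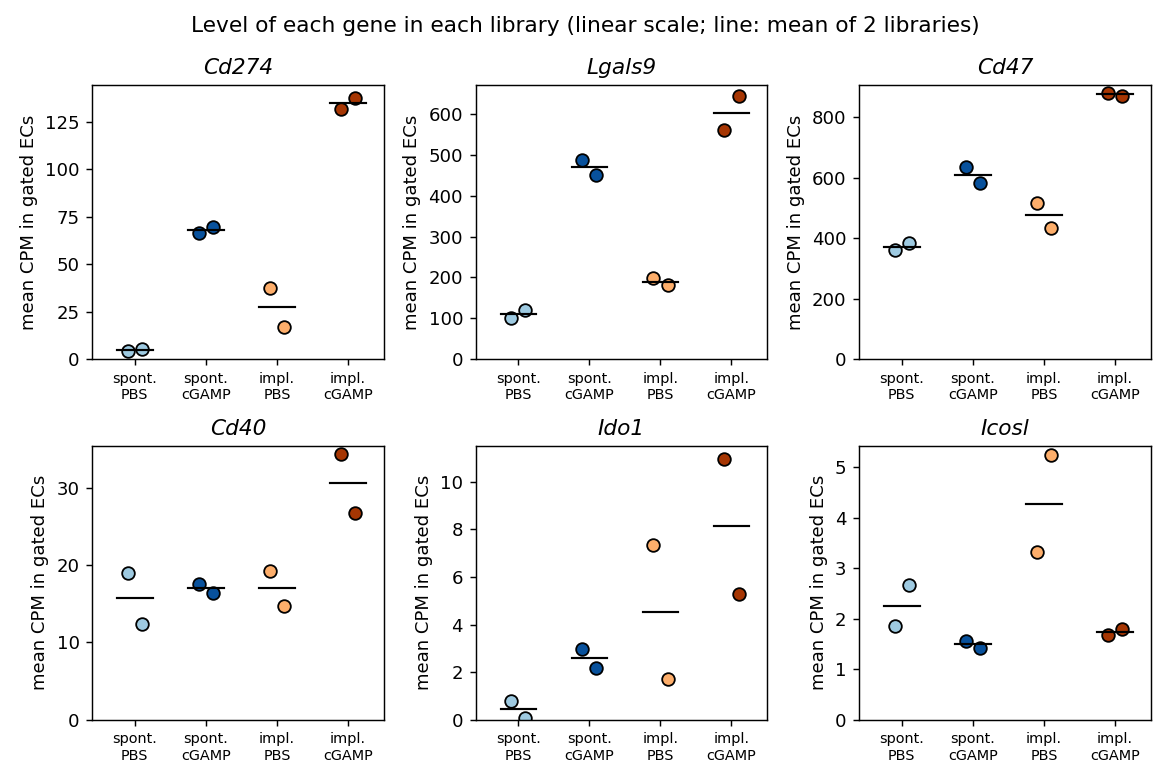
Mean CPM over gated ECs (linear vertical axis from 0) in each library, for the 6 genes with a UMI in all 8 libraries; each point is 1 library and each line the mean of 2. For Cd274, Lgals9 and Cd47 both cGAMP libraries of each model sit above both PBS libraries of that model.

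Cd274 was the gene that differed most between the groups. It stood at 4.02 and 5.38 CPM in the 2 spontaneous PBS libraries and at 66.2 and 69.3 CPM after cGAMP. In implanted tumours it was 37.5 and 17.0 CPM after PBS and 132 and 138 CPM after cGAMP. The 4 groups did not overlap, in the order spontaneous PBS, implanted PBS, spontaneous cGAMP and implanted cGAMP, and the 2 implanted PBS libraries were the least alike. Cd274 rose with cGAMP by a log2 fold change of 3.60 ± 0.28 (SE, limma, adjusted p = 2.86e-05, n = 2 libraries for each group) in spontaneous tumours, where the group means differed 14.4-fold. In implanted tumours it rose by 2.37 ± 0.28 (adjusted p = 0.000405), a 4.95-fold difference of the means. After PBS, the implanted tumours held 5.79 times the mean level of the spontaneous ones (log2 fold change 2.22 ± 0.28, adjusted p = 0.00194), and after cGAMP 1.99 times (0.98 ± 0.28, adjusted p = 0.047). The last call was lost under 14 of 24 other settings, while the other 3 kept their call under all 24.

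Cd274 was detected in more cells after cGAMP. After cGAMP, 38.0% and 37.9% of spontaneous ECs had a Cd274 UMI, against 2.82% and 3.83% after PBS, and in implanted tumours the shares were 37.8% and 52.1% after cGAMP and 23.2% and 13.9% after PBS. With each cell thinned to 1500 UMIs and shallower cells left out (403 of 1443 in implanted cGAMP replicate 1 and 9 to 63 in each other library), the shares were 0.447% and 1.04% in spontaneous PBS, 7.07% and 7.6% in spontaneous cGAMP, 4.69% and 2.61% in implanted PBS and 16.6% and 15.4% in implanted cGAMP. The 2 implanted cGAMP libraries were closer to each other after this step, which changed both the depth and the set of cells in replicate 1. Cells with neither a Pecam1 nor a Ptprc UMI, thinned alike, had a Cd274 UMI in 14.0% (136 cells) and 16% (25 cells) in implanted cGAMP. Those cells were shallower before thinning (median 1101 and 1551 UMIs) and 52.3% and 60.4% of them had a Cdh5 UMI, so they were no cell type that lacks the gene, and the shares are not read as shares of expressing cells. In cells with a Ptprc UMI, Cd274 had a mean of 94.8 and 163 CPM in implanted cGAMP, below and above the values of the gated ECs.

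Lgals9 followed the same order of groups at a higher level. It was 100 and 120 CPM in spontaneous PBS, 487 and 451 CPM in spontaneous cGAMP, 198 and 181 CPM in implanted PBS and 561 and 644 CPM in implanted cGAMP, with no overlap of groups. Lgals9 rose with cGAMP by 2.09 ± 0.11 (log2 fold change ± SE, limma, adjusted p = 1.39e-06) in spontaneous tumours and by 1.66 ± 0.11 (adjusted p = 1.23e-05) in implanted tumours. After PBS it was higher in implanted tumours by 0.78 ± 0.11 (adjusted p = 0.0025). After cGAMP the difference of 0.36 ± 0.11 missed the threshold (adjusted p = 0.0508), with both implanted libraries above both spontaneous ones, and it passed under 13 of 24 other settings.

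Cd47, the gene with the highest level of the 9, moved less but with little spread. It was 359 and 383 CPM in spontaneous PBS, 635 and 581 CPM in spontaneous cGAMP, 517 and 433 CPM in implanted PBS and 880 and 870 CPM in implanted cGAMP. Again the groups did not overlap. The rise with cGAMP was 0.71 ± 0.09 (log2 fold change ± SE, limma, adjusted p = 0.000979) in spontaneous and 0.89 ± 0.09 (adjusted p = 0.00019) in implanted tumours. Cd47 was higher in implanted tumours after PBS by 0.35 ± 0.09 (adjusted p = 0.0479), a call lost under 11 of 24 other settings, and after cGAMP by 0.53 ± 0.09 (adjusted p = 0.00758).

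Cd40 differed from these 3 genes. Its levels of 19.0 and 12.4 CPM in spontaneous PBS overlapped those of 17.6 and 16.4 CPM in spontaneous cGAMP, and the log2 fold change was 0.13 ± 0.21 (limma, adjusted p = 0.725, 95% interval -0.34 to 0.61). In implanted tumours it was 19.3 and 14.8 CPM after PBS and 34.3 and 26.8 CPM after cGAMP, a rise of 0.81 ± 0.21 (adjusted p = 0.0214). After cGAMP it was higher in implanted than in spontaneous tumours by 0.80 ± 0.21 (adjusted p = 0.036), a call lost under 9 of 24 other settings, and after PBS the models overlapped (0.13 ± 0.21, adjusted p = 0.769). The rise in implanted tumours lost its call under 6 of 24 other settings. These were leaving out cells under 2000 UMIs (0.64, adjusted p = 0.0628), taking all deposited cells (0.60, adjusted p = 0.0681), applying no filter on low values (0.81, adjusted p = 0.0715) and thinning (0.81, adjusted p = 0.0928). It was also lost without implanted PBS replicate 2 (0.63, adjusted p = 0.158) and without implanted cGAMP replicate 1 (0.64, adjusted p = 0.0942), the shallow library with most leukocyte markers. It kept its call in gated ECs without any leukocyte marker UMI. The tip class described below held 183 of 2085 gated ECs in implanted PBS and 268 of 2013 in implanted cGAMP. Venous cells numbered 390 and 248, arterial cells 458 and 239, and cells in no class 618 and 934. Between these groups mean Cd40 went from 39.9 to 67.8 CPM in tip, 3.61 to 9.29 in venous and 7.57 to 12.6 in arterial cells. In AQP7 capillary cells it went from 11.8 to 5.39 CPM and in lymphatic cells from 16.2 to 12.4 CPM. In cells in no class it went from 26.9 to 35.3 CPM. The part of class make-up in the rise was not tested.

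Ido1 was near the lower limit of measurement. It was 0.810 and 0.0779 CPM in spontaneous PBS, 2.98 and 2.17 CPM in spontaneous cGAMP, 7.33 and 1.70 CPM in implanted PBS and 11.0 and 5.28 CPM in implanted cGAMP, and the 2 implanted groups overlapped. The log2 fold changes with cGAMP were 1.35 ± 0.57 (limma, adjusted p = 0.151) in spontaneous and 0.87 ± 0.57 (adjusted p = 0.303) in implanted tumours. Few cells carried the transcript, and of the 138 Ido1 UMIs in implanted PBS replicate 1 the 4 highest cells held 74. Without the 4 highest cells of each library the level was 3.14 CPM in that library and 1.02 CPM in its replicate, and 9.55 and 3.72 CPM in implanted cGAMP.

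Icosl was the 1 detected member with a lower mean after cGAMP in both models. It was 1.85 and 2.66 CPM in spontaneous PBS, 1.57 and 1.42 CPM in spontaneous cGAMP, 3.32 and 5.23 CPM in implanted PBS and 1.68 and 1.80 CPM in implanted cGAMP. The PBS libraries lay above the cGAMP libraries of the same model, on 12 to 75 UMIs for each library, and Icosl did not enter the test. At unequal depth, the share of gated ECs with an Icosl UMI was 1.93% after PBS and 2.32% after cGAMP in spontaneous tumours. In implanted tumours it was 4.99% and 1.34%. Of its 225 UMIs, 98 lay in the venous and 62 in the arterial class defined below. These held 390 and 458 cells in implanted PBS and 248 and 239 in implanted cGAMP. The part of this shift in the Icosl means was not tested. Of the 15 Cd86 UMIs, 12 came from implanted cGAMP replicate 1 and 3 from replicate 2, and 9 of the 15 cells with a Cd86 UMI also had UMIs of at least 2 leukocyte markers, which 17.8% and 19.8% of all gated ECs of these libraries had. The Cd80 UMIs came from spontaneous cGAMP replicate 2 (2 UMIs) and implanted cGAMP replicate 1 (3 UMIs), and the single Pdcd1lg2 UMI from implanted PBS replicate 1. In the 2085 gated ECs of implanted PBS, 0 cells with a Cd80 or Cd86 UMI allow a share of cells with a UMI of up to 0.144%, with counting error alone considered. This does not limit the share of cells that express the genes.

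The counts of called members stood above those of all tested genes in 4 of the 5 comparisons. In spontaneous tumours 3 of the 5 tested members were called, all higher with cGAMP, where 12.7% of all tested genes were called in either direction and 5.05% were called higher. In implanted tumours 4 of 5 were called, all higher, where 24.9% of all tested genes were called and 8.56% were called higher. The median log2 fold change of the 5 was 1.35 (the value of Ido1, not called) and 0.89 (that of Cd47), beside -0.10 over all genes in both models. Ido1 passed the filter through implanted libraries alone, and Icosl, with lower means after cGAMP, did not pass. The list was also chosen with earlier results of these data known, so these counts and medians are descriptions and no test of the list. Between models after PBS, 3 of 5 members were called higher in implanted tumours (7.84% of all genes called, 3.37% higher), and after cGAMP 3 of 5 (14.4% called, 5.35% higher). With median-of-ratios scaling the share of called genes that were higher went from 39.7% to 66.2% in spontaneous and from 34.3% to 51.9% in implanted tumours, and from 43.0% to 67.2% after PBS and from 37.2% to 58.0% after cGAMP between models, while no called member changed direction. The comparisons share libraries, so their counts are not independent of each other.

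**Figure D2:**
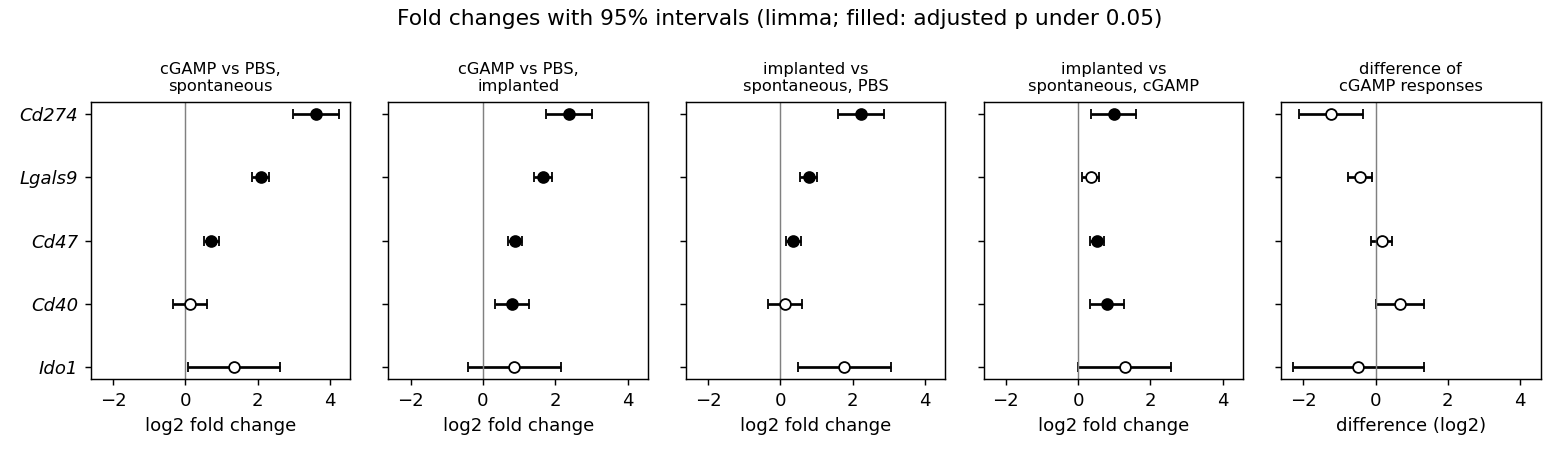
Log2 fold change (horizontal axis) of the 5 tested genes in 4 comparisons and, in the right panel, the difference of the 2 cGAMP responses; bars are 95% intervals from limma and filled points had an adjusted p under 0.05. Cd274, Lgals9 and Cd47 are filled in both cGAMP panels, and no point is filled in the right panel.

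The difference of the 2 responses was tested directly, as implanted minus spontaneous. None of the 5 members passed, where 0.624% of all genes were called and 0.192% were called higher, although 3 of 5 had an unadjusted limma p under 0.05. The difference for Cd274 was -1.23 ± 0.40 on the log2 scale (limma, adjusted p = 0.239), and without implanted PBS replicate 2, the library with the lower Cd274 level of its group, the difference was -1.78 (adjusted p = 0.00553). The value for Lgals9 was -0.43 ± 0.15 (adjusted p = 0.271) and that for Cd40 was 0.68 ± 0.30 (adjusted p = 0.374). For Cd47 the 95% interval of the difference ran from -0.11 to 0.47.

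Transcripts that mark other cell types were also found in the gated ECs, at levels that differed between libraries. The methods give a CD45- gate for ECs sorted for bulk RNA and a common gating strategy for the EC sorts, which would leave out cells with surface CD45. The share of gated ECs with a UMI of any of the 21 leukocyte markers was 17.5% to 23.2% in the PBS libraries and 35.3% to 52.6% in the cGAMP libraries, and cells with a Ptprc UMI, left out here, were 0.148% to 0.673% of the PBS and 1.62% to 5.78% of the cGAMP libraries. Of 8 mural markers such as Rgs5 the summed level was 610 to 764 CPM in spontaneous cGAMP, against 85.9 and 462 CPM in spontaneous PBS. In implanted tumours it was 134 to 209 CPM after cGAMP and 78.9 to 110 CPM after PBS. Of 6 fibroblast markers the sum was 12.7 and 69.2 CPM in spontaneous PBS, 66.4 and 90.5 CPM in spontaneous cGAMP, 12.3 to 19.2 CPM in implanted PBS and 47.5 to 55.7 CPM in implanted cGAMP. Of 8 epithelial markers it was 304 to 391 CPM in the spontaneous libraries, 152 to 232 CPM in implanted PBS, and 760 CPM in implanted cGAMP replicate 1 against 130 CPM in replicate 2. Of 6 dendritic-cell markers, Zbtb46, which ECs also express, gave nearly all of the 25.3 to 35.7 CPM, and Cd209a had no UMI. In gated ECs without a leukocyte marker UMI the 3 called members in spontaneous and the 4 in implanted tumours were called again, and likewise in gated ECs without a mural marker UMI, a setting chosen after the data had been seen. The part of such transcripts in the levels of single libraries was not tested.

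The genes around these members were counted by list, where over all genes 12.7% were called in spontaneous and 24.9% in implanted tumours, with a median log2 fold change of -0.10 in both. Of 15 interferon and JAK-STAT genes, all tested, 6 rose and 0 fell with cGAMP in spontaneous tumours, and 7 rose and 2 fell in implanted tumours, with medians of 0.17 and 0.29. Stat2, a transcription factor of type I interferon signalling, went from 25.7 and 24.2 CPM to 126 and 120 CPM in spontaneous tumours (log2 fold change 2.25 ± 0.12, limma, adjusted p = 1.87e-06) and from 51.5 and 42.0 CPM to 134 and 156 CPM in implanted tumours (1.62 ± 0.12, adjusted p = 2.88e-05). Socs1, a feedback inhibitor of JAK kinases, rose by 2.01 and 1.42 in the 2 models. After PBS, 6 of the 15 were higher in implanted tumours and none lower, where 7.84% of all genes were called and 3.37% called higher. Among the 6 was Socs1 (1.35 ± 0.16, limma, adjusted p = 0.00113). The order of the 4 groups for Stat2 and Socs1 was the same as for Cd274. Only Irf9, the DNA-binding partner of Stat2 in that pathway, passed the test of the difference of responses (-0.92 ± 0.13, adjusted p = 0.0265), and it was named after its value was seen.

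Of 24 other checkpoint and costimulation ligands listed, 14 were tested, and 3 rose and 1 fell in spontaneous tumours against 4 and 2 in implanted tumours, with medians of -0.03 and 0.14. H2-T23, which encodes Qa-1, the ligand of the inhibitory receptor NKG2A, was at 76.4 and 78.2 CPM in spontaneous PBS and at 461 and 517 CPM after cGAMP (log2 fold change 2.64 ± 0.13, limma, adjusted p = 1.39e-06). In implanted tumours it rose from 181 and 134 CPM to 625 and 709 CPM (2.09 ± 0.13, adjusted p = 1.13e-05). Pvr, the ligand of TIGIT and CD226, rose by 0.47 ± 0.11 (adjusted p = 0.026) and 0.72 ± 0.11 (adjusted p = 0.00182). Nectin3 fell by 0.51 in implanted tumours (adjusted p = 0.0142) and its value in spontaneous tumours was -0.30 (adjusted p = 0.139).

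Of 17 leukocyte receptors of these ligands, 2 reached the level for the test. PD-1 (Pdcd1) did not exceed 0.993 CPM in any library and CTLA-4 (Ctla4) 0.488 CPM, and CD40 ligand (Cd40lg) was found in implanted cGAMP replicate 1 alone, at 0.565 CPM. Tnfrsf9, which encodes 4-1BB, a costimulatory receptor of T cells, was called. It was 0.27 and 0.574 CPM in spontaneous PBS, 7.76 and 2.99 CPM in spontaneous cGAMP, 13.7 and 2.71 CPM in implanted PBS and 25.1 and 32.7 CPM in implanted cGAMP, and it rose by 2.06 ± 0.58 (adjusted p = 0.0468) and 2.01 ± 0.58 (adjusted p = 0.0316).

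Of 14 CD40 signalling genes, 0 were called in spontaneous tumours (limma, 3 of 14 with an unadjusted p under 0.05) and 3 rose in implanted tumours, a share below the 24.9% of all genes called there in either direction and above the 8.56% called higher. The medians were 0.11 and -0.01. The 3 genes were Tnfaip3, an inhibitor of NF-kB signalling (1.03 ± 0.13, adjusted p = 0.000681), and the ubiquitin ligases Birc3 (0.99 ± 0.25, adjusted p = 0.0178) and Birc2 (0.58 ± 0.15, adjusted p = 0.0185). Their differences between models did not pass (adjusted p from 0.197 to 0.452). Cd40 was likewise called in implanted tumours, while the difference of its responses was not called.

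Of the other tryptophan and kynurenine genes, 5 of 14 listed were tested and 1 rose in each model, with medians of -0.04 and 0.14. In spontaneous tumours this was Wars, the tryptophanyl-tRNA synthetase, from 39.1 and 41.8 CPM to 133 and 119 CPM (1.61 ± 0.20, adjusted p = 0.000715). In implanted tumours Wars was 202 and 119 CPM after PBS and 209 and 181 CPM after cGAMP (0.32 ± 0.20, adjusted p = 0.274). There Cyp1b1, a target of the aryl hydrocarbon receptor that kynurenine activates, rose from 1.11 and 0.973 CPM to 9.86 and 39.4 CPM (3.36 ± 0.59, adjusted p = 0.00322), the 2 cGAMP libraries lying far apart. In spontaneous tumours Cyp1b1 was 10.2 and 17.1 CPM after PBS and 9.60 and 3.23 CPM after cGAMP.

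Of 7 CD47 partners, 1 rose in spontaneous and 3 rose in implanted tumours, with medians of 0.02 and 0.77. Itgb3, the beta subunit of an integrin that associates with CD47, rose in both (0.92 ± 0.15, adjusted p = 0.00407, and 1.27 ± 0.15, adjusted p = 0.000369). Thbs1, the secreted CD47 ligand thrombospondin-1, was called in implanted tumours (1.11 ± 0.29, adjusted p = 0.0206) with 135 and 74.3 CPM after PBS and 270 and 175 CPM after cGAMP. Itgav, the alpha subunit that pairs with Itgb3, rose there by 0.77 ± 0.15 (adjusted p = 0.00502).

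**Figure D3:**
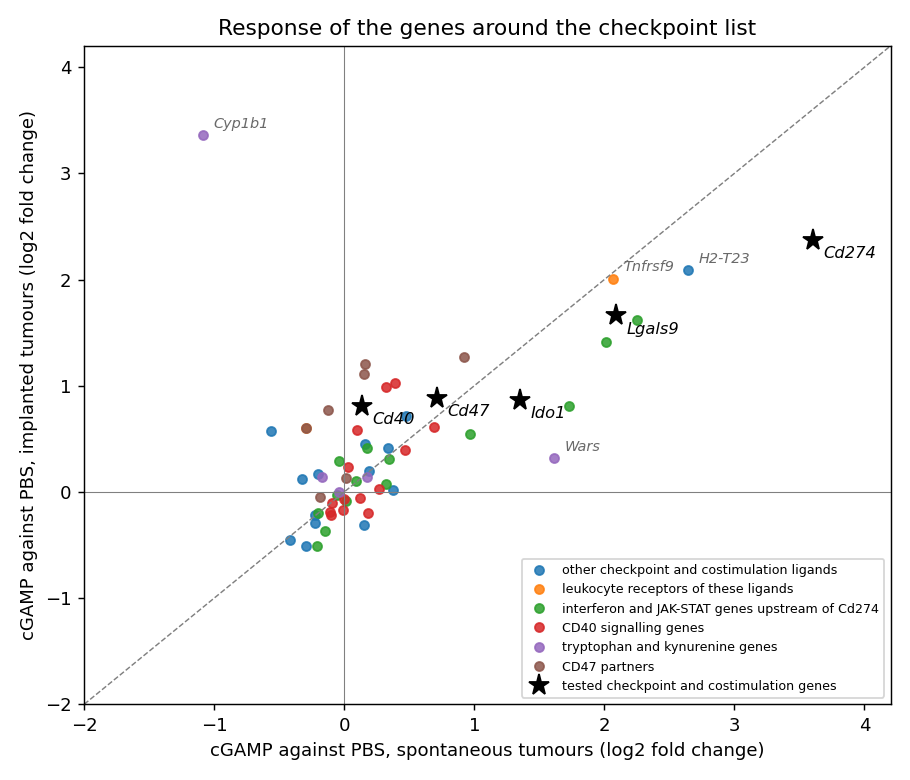
Log2 fold change with cGAMP in spontaneous tumours (horizontal axis) against implanted tumours (vertical axis) for tested genes of 6 pathway lists (points) and the 5 tested checkpoint and costimulation genes (stars); the dashed line marks equal responses. Cd274 lies farthest to the right at 3.60 and 2.37, with H2-T23 the nearest point to it, and Cyp1b1 stands alone at upper left.

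Over the 8 libraries the genes whose log2 levels were most like those of Cd274 were Tnfsf10, Socs1 and Tap2 (Pearson r = 0.998, 0.997 and 0.997), which share with it the same cells and the same contrast of treatments. For Lgals9 they were Lgals3bp, Ifih1 and Bst2 (r = 0.999, 0.998 and 0.998) and for Cd47 Ccrl2, Ifi205 and Mvp (r = 0.996, 0.996 and 0.993). Those of Cd40 were Pmepa1, Pnpt1 and Yars (r = 0.970, 0.959 and 0.955), and those of Ido1 were Vwa5a, Cp and Kars (r = 0.968, 0.964 and 0.963). Among the members, Cd274 and Lgals9 were the most alike (r = 0.969) and Cd40 and Lgals9 the least (r = 0.626). These values are descriptions of 8 libraries in 4 groups.

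Vessel types were approached with 6 lists of markers. A gated EC was put in the class whose markers it held at the highest mean standardised level, at least 0.5 and 0.25 above the next class, which placed 1139 cells in the arterial, 1063 in the venous, 728 in the tip, 514 in the AQP7 capillary, 406 in the lymphatic and 307 in the proliferating class and left 2837 in none. The 10 genes with the largest mean difference in a class held 3 to 6 of its own markers and none of another class. The same markers had placed the cells, so this outcome was largely fixed in advance and is no test of the classes. A class is a range of a score and not a cell type, and 818 cells lay near the margin. Each class was compared with the other gated ECs of its own library over 10374 genes, without the markers, as the difference of log2(CPM + 1). Between 19.2% (AQP7 capillary) and 39.9% (arterial) of all genes were called, with 33% in the venous, 30.3% in the tip, 29.7% in the lymphatic and 27.3% in the proliferating class. Against this high background, 19 of 30 tests of the 5 members were called.

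**Figure D4:**
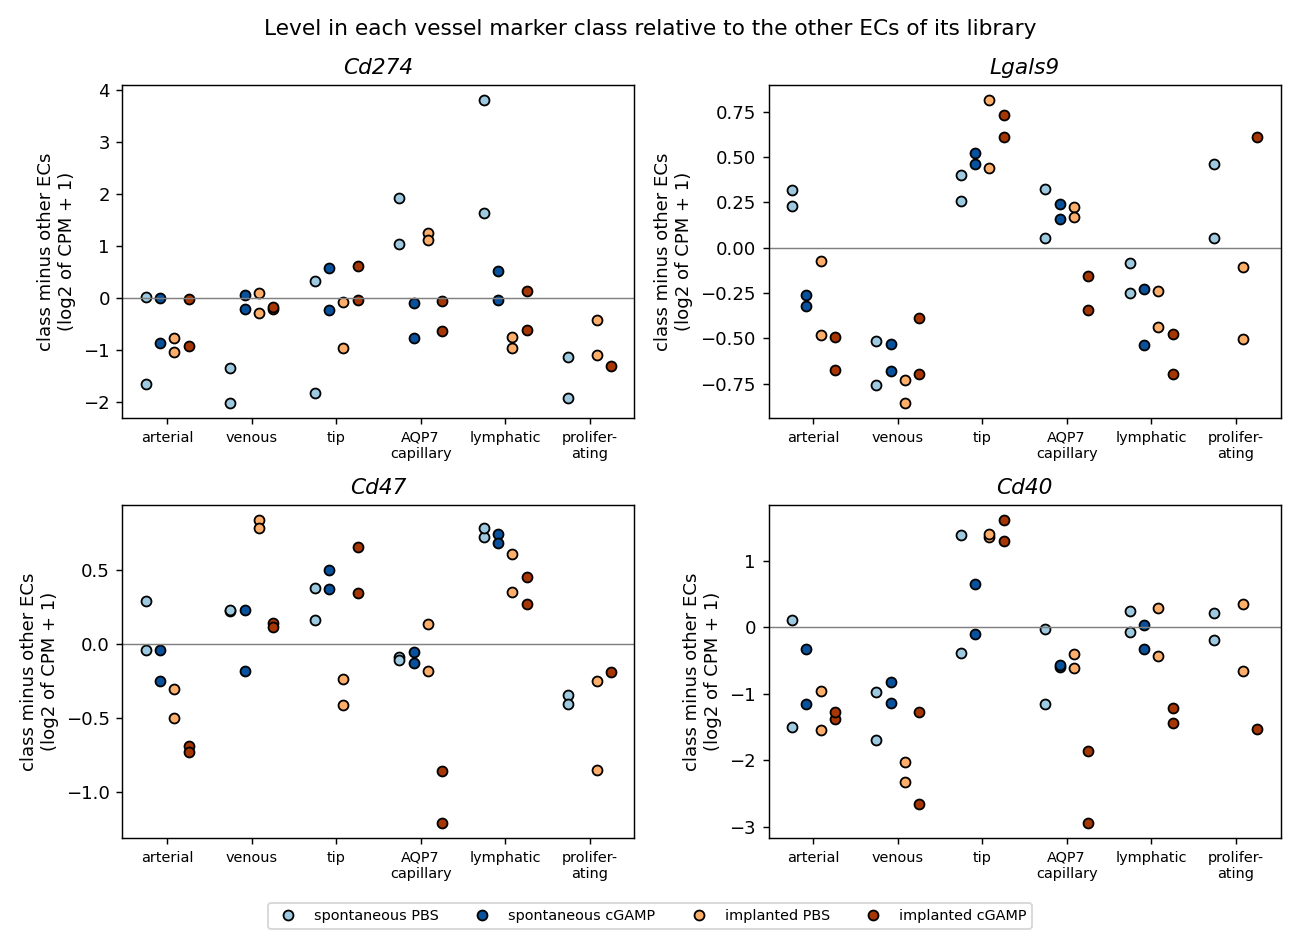
Difference between the cells of a marker class and the other gated ECs of the same library (vertical axis, log2 of CPM + 1) for Cd274, Lgals9, Cd47 and Cd40; each point is 1 library with at least 10 cells of the class, coloured by group. All Cd40 and Lgals9 points of the venous class lie below 0, and the Cd274 points of the AQP7 capillary class lie above 0 after PBS and below 0 after cGAMP.

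Tip cells, which lead sprouting vessels and were marked by Esm1, Apln and others, held more Lgals9 and Cd40. Lgals9 was higher in the tip class by 0.53 ± 0.06 (limma, adjusted p = 7.29e-07) and in 8 of 8 libraries. In tip cells it was 129 and 140 CPM in spontaneous PBS, 639 and 630 CPM in spontaneous cGAMP, 322 and 241 CPM in implanted PBS and 806 and 967 CPM in implanted cGAMP. Cd40 was higher in tip cells by 0.90 ± 0.18 (adjusted p = 0.000605) in 6 of 8 libraries, reaching 73.0 and 62.5 CPM in implanted cGAMP, and lost the call in cells without a leukocyte marker UMI (0.64, adjusted p = 0.102). Cd47 was higher there by 0.22 ± 0.05 (adjusted p = 0.0029) in 6 of 8 libraries. Tip cells were also deep, with medians of 7148 to 21370 UMIs.

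The venous class, marked by Ackr1, Nr2f2 and others, was low in the same 2 genes. Lgals9 was lower by -0.64 ± 0.05 (limma, adjusted p = 6.80e-08) and Cd40 by -1.62 ± 0.17 (adjusted p = 1.68e-06), each in 8 of 8 libraries. Cd274 was lower there by -0.51 ± 0.11 (adjusted p = 0.00151) in 6 of 8 libraries, with the larger gaps in spontaneous PBS, on 3 and 1 UMIs. Ido1 was lower by -0.81 ± 0.26 (adjusted p = 0.0244), a call lost under 5 of 12 other settings. Cd47 was instead higher, by 0.30 ± 0.04 (adjusted p = 6.85e-05) in 7 of 8 libraries.

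The arterial class was low in 4 genes. Cd40 was lower by -1.003 ± 0.18 (limma, adjusted p = 0.000222) and Cd274 by -0.65 ± 0.17 (adjusted p = 0.00414). Cd47 was lower by -0.28 ± 0.05 (adjusted p = 7.55e-05) and Lgals9 by -0.22 ± 0.05 (adjusted p = 0.00299). For Cd274 the direction held in 6 of 8 libraries.

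Lymphatic ECs, marked by Prox1, Lyve1 and others, held the most Cd47 in the PBS libraries of spontaneous tumours, at 585 and 642 CPM. Over all groups Cd47 was higher in this class by 0.58 ± 0.06 (limma, adjusted p = 9.96e-06) and Lgals9 was lower by -0.37 ± 0.07 (adjusted p = 0.00244), each in 8 of 8 libraries. Cd274 in this class was 52.7 and 17.4 CPM in spontaneous PBS, on 9 and 5 UMIs, and 19.3 and 9.86 CPM in implanted PBS, on 15 and 6 UMIs. Its mean difference of 0.47 ± 0.22 did not pass (limma, adjusted p = 0.135), and without spontaneous PBS replicate 2 it was 0.74 (adjusted p = 0.00339).

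In the proliferating class, present with at least 10 cells in 5 libraries, Cd274 was lower by -1.19 ± 0.27 (limma, adjusted p = 0.0166) and Cd47 by -0.37 ± 0.12 (adjusted p = 0.048), in 5 of 5 libraries each. Both calls were lost without either implanted PBS library. Proliferating cells had the highest median depth of the classes in these 5 libraries, up to a median of 25915 UMIs, and the part of depth was not tested.

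The AQP7 capillary class, whose markers such as Aqp7, Cd36 and Fabp4 belong to capillaries that handle fatty acids, differed from the other ECs in Cd274 in opposite directions after PBS and after cGAMP. After PBS, Cd274 in these cells was 15.9 and 10.9 CPM in spontaneous and 83.3 and 35.4 CPM in implanted tumours, against 3.46, 4.77, 34.3 and 15.7 CPM in the other ECs of the same libraries. After cGAMP it was 40.7 and 65.5 CPM in spontaneous and 127 and 90.5 CPM in implanted tumours, against 69.9, 70.0, 132 and 141 CPM in the other ECs. The class thus lay above the other ECs in 4 of 4 PBS libraries and below them in 4 of 4 cGAMP libraries, and the change of the gap was -1.73 ± 0.30 (limma, adjusted p = 0.0158). The spontaneous PBS values rest on 4 and 3 UMIs, and the call was lost under 5 of 12 other settings, among them leaving out either implanted PBS library. Averaged over groups, Cd274 was higher in the class by 0.47 ± 0.15 (adjusted p = 0.0373), in 4 of 8 libraries, a call lost under 6 of 12 other settings, and Cd40 was lower by -1.02 ± 0.23 (adjusted p = 0.00422) in 8 of 8 and Cd47 by -0.31 ± 0.06 (adjusted p = 0.000552) in 7 of 8.

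Across the 5 classes present in every group, 10 tests asked whether a class gap changed with treatment or with model, and few genes of any kind were called. The shares for cGAMP minus PBS were 0.578% of genes in the AQP7 capillary, 1.12% in the arterial, 0.337% in the lymphatic, 2.17% in the tip and 3.19% in the venous class. For implanted minus spontaneous they were 0.0868%, 1.38%, 0%, 1.07% and 3.14% in the same order. In these 10 tests Cd47 was called 4 times and Cd274 once, the AQP7 capillary gap above. In tip cells the Cd47 gap was higher after cGAMP by 0.49 ± 0.10 (limma, adjusted p = 0.0153), from 445 and 331 CPM to 1080 and 1251 CPM in the tip cells of implanted tumours, while in the other ECs it went from 525 and 441 CPM to 852 and 796 CPM. In venous cells the Cd47 gap was lower after cGAMP by -0.44 ± 0.09 (adjusted p = 0.0155) and higher in implanted tumours by 0.34 ± 0.09 (adjusted p = 0.0486). In arterial cells it was lower in implanted tumours by -0.54 ± 0.09 (adjusted p = 0.00717). In gated ECs without a leukocyte marker UMI none of these 5 calls was kept, and all 5 kept their direction. Of 12 other settings, the Cd47 call in tip cells was lost under 5 and that in arterial cells under 1. In venous cells the Cd47 call for treatment was lost under 6 and that for model under 8.

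The change of the gap with cGAMP was also estimated within each model. In tip cells the Cd47 gap changed by 0.82 ± 0.15 in implanted tumours (limma, adjusted p = 0.00942, 0.945% of genes called), and its value in spontaneous tumours was 0.17 ± 0.15 (adjusted p = 0.732). In venous cells the Cd47 gap changed by -0.68 ± 0.13 in implanted tumours (adjusted p = 0.00859, 3.73% of genes called), and its value in spontaneous tumours was -0.20 ± 0.13 (adjusted p = 0.779). In AQP7 capillary cells the Cd47 gap changed by -1.01 ± 0.16 in implanted tumours (adjusted p = 0.0108, 0.858% of genes called), with 0.0034 ± 0.16 in spontaneous tumours. The Cd274 gap of venous cells changed by 1.61 ± 0.30 in spontaneous tumours (adjusted p = 0.0434, 0.212% of genes called), on 3 and 1 UMIs after PBS, and its value in implanted tumours was -0.09 ± 0.30. Whether these changes differed between the models was not tested, and the within-model values were not checked under the other settings.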

How the data were processed

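The authors sequenced live CD31+ cells with a 3′ single-cell kit, aligned reads to mm10 with Cell Ranger 3.0.0, and in Seurat 3.1.1 removed cells under 500 genes or over 10% mitochondrial UMIs and genes found in under 3 cells. The deposited values are natural log values, ln of 1 plus UMIs for each 10000 of a cell. Whole UMIs were recovered from them, and all values came out whole within a tolerance of 0.01. No doublet caller was run, and doublets beyond cells with a Ptprc UMI were not removed.

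For each library the mean CPM over gated ECs was taken as log2(CPM + 1). Genes that reached 5 CPM in 2 or more libraries entered 1 limma model over all 8 libraries (limma 3.58.1, R 4.3.3, trended variance, two-sided), with Benjamini-Hochberg adjustment over all tested genes and a threshold of 0.05. Fold changes of low genes are understated on this scale. Class scores were means of standardised levels capped at 5. Shares and limits cover counting error only.

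The 9 members, the pathway and marker lists and the tests were chosen with earlier results of these data known. Named genes were all members, of each list the 3 called in a cGAMP comparison with the largest absolute log2 fold change, and the 3 genes most correlated with each tested member. One list gene is not reported or plotted here, though counts of its list include it. On simulated data 96 of 100 genes changed 2-fold and 100 of 100 changed 4-fold were called for the implanted response (10105 genes), and 72 and 100 for the difference of responses. Of the unchanged genes, 6 and 12 were called. The simulation gave every gene the same set spread between libraries, not estimated from these data. It checks the procedure and does not give the power for genes with a wider spread, such as Cd274 in implanted PBS. Other settings were scaling, pseudocount, filters, gates, depth, summed UMIs, the libraries fitted, a replicate block and leaving out each library.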

Additional observations from a re-analysis of the deposited data

Results flagged for a closer look

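5 results were singled out because the gap between a vessel marker class and the other gated ECs differed between treatments or models by a test of that difference (limma, adjusted p under 0.05). The Cd274 gap of the AQP7 capillary class differed by -1.73 between cGAMP and PBS, positive in 4 of 4 PBS libraries and negative in 4 of 4 cGAMP libraries.

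The Cd47 gap of the tip class was higher by 0.49 after cGAMP, and in implanted PBS it was -0.24 and -0.41 against 0.34 and 0.65 in implanted cGAMP. The Cd47 gap of the venous class was lower by -0.44 after cGAMP and higher by 0.34 in implanted tumours, with 0.84 and 0.78 in implanted PBS and -0.18 to 0.23 in the other 6 libraries. The Cd47 gap of the arterial class was lower by -0.54 in implanted tumours, from -0.30 to -0.73 there and from -0.25 to 0.29 in spontaneous tumours. Each call was lost in gated ECs without a leukocyte marker UMI. Counted over 12 other settings, the Cd47 calls were lost under 5 in tip cells and 1 in arterial cells. In venous cells they were lost under 6 for treatment and 8 for model.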

How the results depend on the processing

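The cGAMP responses of Cd274, Lgals9 and Cd47 kept direction and call under all 24 other settings. Leaving out 1 library gave 3 called members in spontaneous and 3 to 4 in implanted tumours, 0 to 1 for the difference of responses (1 without implanted PBS replicate 2), 2 to 3 between models after PBS and 0 to 3 after cGAMP (0 without spontaneous cGAMP replicate 2). With no filter on low values, 1 was called between models after cGAMP. The class calls numbered 15 to 22 of 30. Over all genes the calls were 1326 in spontaneous tumours (462 to 1835 leaving out 1 library, 625 to 2874 under other settings), 2599 in implanted (1270 to 2474, 1265 to 3652), 65 for the difference (0 to 164, 0 to 105), 817 after PBS (217 to 1243, 322 to 1342) and 1498 after cGAMP (179 to 1471, 596 to 2097). The cause of these changes was not tested.

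With a replicate block, Ido1 was called between models after PBS (1.76, limma, adjusted p = 0.0404, 4 members called) and Cd274 after cGAMP was not (0.98, adjusted p = 0.0563). Over the tested genes, deviations of same-numbered libraries from their group means had correlations from -0.21 to 0.12. Such values cannot tell whether the numbers pair libraries, and a shared day or batch was not tested.

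Values that changed sign were not called in the main analysis. Leaving out 1 library, Cd40 ranged from -0.15 to 0.42 in spontaneous tumours and from -0.16 to 0.41 between models after PBS (-0.056 without implanted PBS replicate 1), and the Ido1 difference of responses from -1.29 to 0.34. That difference was 0.66 with thinned cells and 0.017 with a pseudocount of 5. Leaving out 1 library, Cd274 in tip cells ranged from -0.47 to 0.071, Ido1 from -0.55 to 0.20 in AQP7 capillary and from -1.04 to 0.39 in lymphatic cells, and in proliferating cells Ido1 from -0.82 to 0.93 and Lgals9 from -0.024 to 0.26. In proliferating cells Cd40 was 0.024 with at least 20 cells and 0.13 without leukocyte UMIs. Ido1 there was -0.19 with a pseudocount of 0.1, -1.02 with 20 cells, -0.81 with a stricter margin and -0.74 without leukocyte UMIs, and Lgals9 was -0.13, -0.019 and -0.36 under the last 3.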
